A study of Mus musculus with 4 samples.

Results

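Genes of 3 repair pathways that correct damage to single bases or mismatched bases were examined in irradiated blood-forming stem and progenitor cells, together with Mgmt, which reverses alkylation of guanine directly. The list was drawn up by function and holds 32 genes, of which 11 encode DNA glycosylases, 6 the shared later steps of base excision repair, 9 nucleotide excision repair proteins, 5 mismatch repair proteins and 1 Mgmt. A gene was measured through the probe sets whose platform annotation names it alone, and its main probe set was the one with the highest mean log2 signal. In this way 30 of the 32 were measured, among 18194 genes on the arrays. Neil2 and Tdg, both DNA glycosylases, were not analysed here. All 30 passed a filter on low signals, set at the 40th percentile of all probe sets, as did 12680 genes in all.

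The population studied is known as LSK, for Lin-Sca-1+c-Kit+, and in bone marrow it contains the haematopoietic stem cells. Per the labels they came from C57BL/6 mice whose marrow had been reconstituted with fetal liver cells, and every mouse was then irradiated with 6.5 Gy, a sublethal dose. Donor fetal liver cells were necdin null in 2 samples and wild type in 2 samples, and each sample was hybridised to 1 array. Both groups thus share reconstitution and irradiation, and no unirradiated cells were analysed here. The labels do not say when cells were taken after irradiation, whether cells of the host were removed by a donor marker, or whether the samples of a group were separate animals, so p-values measure only the spread between these arrays. Necdin, the product of the imprinted gene Ndn, restrains growth and binds E2F1 and p53, both regulators of the response to DNA damage.

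Base excision repair starts with a glycosylase that recognises certain altered bases and cuts them out. Apex1 then cleaves the strand at the empty site, Polb fills the gap, and Lig3 with its scaffold Xrcc1 seals the nick, while Parp1 and Parp2 sense the break. Nucleotide excision repair removes a stretch of strand around bulky lesions, and mismatch repair removes replication errors. Ionising radiation produces oxidised bases and strand breaks. Of these, the oxidised bases fall mainly to base excision repair in textbook accounts. Blood stem cells depend on intact repair to keep their function over a lifetime.

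The labelled identity was checked through marker genes. Kit, a gene of the sorting gate, had 6049 and 3744 signal units in necdin null and 6617 and 3976 in wild type cells, never below the 94.9th percentile of all probe sets, while Ly6a, which encodes Sca-1, was not analysed here. All 9 measured stem and early progenitor markers passed the filter. So did 6 of 7 B lineage markers (not Cd79a), 5 of 7 of monocytes and macrophages (not Cd14 and Itgam), 5 of 6 of the red lineage (not Hba-a1) and 3 of 7 of T and NK cells (not Cd3d, Cd3e, Cd3g and Cd4). The 7 monocyte and macrophage markers summed to 8652 and 15237 in necdin null samples and 7019 and 12757 in wild type samples. Of the 5 that passed, however, 1 had a higher and 4 a lower value in necdin null cells (median log2 difference -0.01). Neutrophil genes were present: all 10 measured passed, and their summed signal was 98119 and 200681 in necdin null samples and 76783 and 137169 in wild type samples. All 10 had a higher value in necdin null cells (median log2 difference 0.43), against 45.9% of all genes. For 3 of them both necdin null arrays lay above both wild type arrays, against 12.8% of all genes. Ndn itself had 55.4 and 105 in necdin null and 253 and 255 in wild type cells. Necdin null replicate 2 stood apart from the other arrays. Its brightest 1% of probe sets took 37.4% of the total signal, against 28.9% to 30.6% elsewhere, and its 3' to 5' ratio for Gapdh was 15.8, against 9.96 to 11.7. Xist, the RNA that silences an X chromosome in female cells, was looked up after values were seen. It had 4841 and 76.8 in necdin null and 9930 and 7182 in wild type cells, so the arrays also differ in this sex-linked RNA. In bulk samples, fewer cells of a type and less RNA per cell cannot be told apart.

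Promoter sequences of 3 genes are shown first, because they stand for the range of outcomes below: Smug1 was lower on both necdin null arrays, Parp2 was higher on both, and Msh6 had nearly equal means. The sequences are RefSeq's for build GRCm38.p6, run from 250 bases before to 50 bases after the annotated start, and are written 5′ to 3′ on the strand of the gene. Smug1 lies at chr15:103163235-103163534 on the minus strand, Parp2 at chr14:50807666-50807965 on the plus strand and Msh6 at chr17:87974800-87975099 on the plus strand. Capitals mark matches, on either strand, to a CCAAT box (CCAAT), a GC box (GGGCGG), an ETS-type motif (CCGGAA), a half-site of the cAMP response element (TGACGT) and an E2F-type motif (TTTNNCGC).
Smug1: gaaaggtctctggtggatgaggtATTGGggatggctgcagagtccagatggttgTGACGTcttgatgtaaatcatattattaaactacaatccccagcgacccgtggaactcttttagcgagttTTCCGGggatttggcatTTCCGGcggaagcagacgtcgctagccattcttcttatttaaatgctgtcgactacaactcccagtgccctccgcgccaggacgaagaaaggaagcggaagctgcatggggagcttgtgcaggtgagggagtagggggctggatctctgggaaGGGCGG
Parp2: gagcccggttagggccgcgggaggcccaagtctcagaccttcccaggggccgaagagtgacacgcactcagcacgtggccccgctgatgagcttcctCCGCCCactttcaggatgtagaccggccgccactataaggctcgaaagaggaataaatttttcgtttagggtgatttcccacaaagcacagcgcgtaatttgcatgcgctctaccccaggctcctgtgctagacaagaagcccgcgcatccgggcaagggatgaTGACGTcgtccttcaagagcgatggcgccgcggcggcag
Msh6: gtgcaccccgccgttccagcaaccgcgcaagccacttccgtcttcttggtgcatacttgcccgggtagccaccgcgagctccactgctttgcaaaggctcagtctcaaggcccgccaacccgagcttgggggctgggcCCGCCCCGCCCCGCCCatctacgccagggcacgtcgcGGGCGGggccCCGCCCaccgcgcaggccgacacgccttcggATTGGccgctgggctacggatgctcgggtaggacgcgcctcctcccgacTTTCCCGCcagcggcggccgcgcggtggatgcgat
The Smug1 window held 2 ETS-type matches and 1 match each to the CCAAT box, the GC box and the cAMP half-site. The Parp2 window held 1 GC box and 1 cAMP half-site, which begins at position 12 counted from the start. In the Msh6 window there were 5 GC boxes, 3 of which overlap by a base, besides 1 CCAAT box and 1 E2F-type match. A promoter was listed for 28 of the 30 measured genes, taking the first listed for genes with several. GC boxes were found in 23 of these 28 (82.1%), CCAAT boxes in 17 (60.7%), ETS-type motifs in 12 (42.9%), and E2F-type motifs and cAMP half-sites in 3 each (10.7%). Over all 27025 promoters the shares were 35.9%, 37.9%, 15.2%, 5.27% and 7.64%. Over the 10287 promoters of genes that passed the filter, they were 62.3%, 38.2%, 27.2%, 8.43% and 11.6%. These matches describe the letters of the window only.

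The pathways were first set side by side by signal in the irradiated cells. Signals of different probe sets are not on 1 scale, because probes bind with different strength, so the ranks below describe probe sets and not numbers of transcripts. The 6 genes of the base excision core lay high on the arrays, with mean signals over the 4 arrays between 846 and 19345 and mean ranks between the 83.3rd and the 99.2nd percentile. They had a median signal of 1446 and a median rank at the 88.3rd percentile. The 9 measured glycosylases had a median signal of 317 and a median rank at the 72.6th percentile. Nucleotide excision genes had a median signal of 452 (76.4th percentile) and mismatch genes one of 552 (78.8th percentile). The median signal was 527 over the 30 repair genes and 524 over all genes that passed the filter, both at a median rank of the 78.1th percentile. Other genes of the same pathways, described below as partners, had another order. Their median ranks were the 80.0th percentile for base excision, the 89.3rd for nucleotide excision and the 95.6th for mismatch repair. The order of the pathways thus depends on which genes are listed.

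Above the 90th percentile lay 6 of the 30 genes, or 20.0%, against 23.8% of all genes that passed the filter. They were Apex1, the endonuclease for sites without a base, Ung, the main glycosylase for uracil, Ddb1, an adaptor of the CUL4 ubiquitin ligase, Msh6, a sensor of base mismatches, Parp1, and Rad23b, a partner of the lesion sensor of nucleotide excision repair. At the low end were Ogg1, which removes oxidised guanine, with a mean signal of 103, Ercc2, a helicase of TFIIH, with 106, and, lowest of all, Ercc6, which couples repair to stalled transcription. The filter stood at a signal of 30.3, so Ercc6 was the gene just inside it. Among the glycosylases, Ung stood alone with a mean of 6412, and the next was Smug1 with 556.

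**Figure D1:**
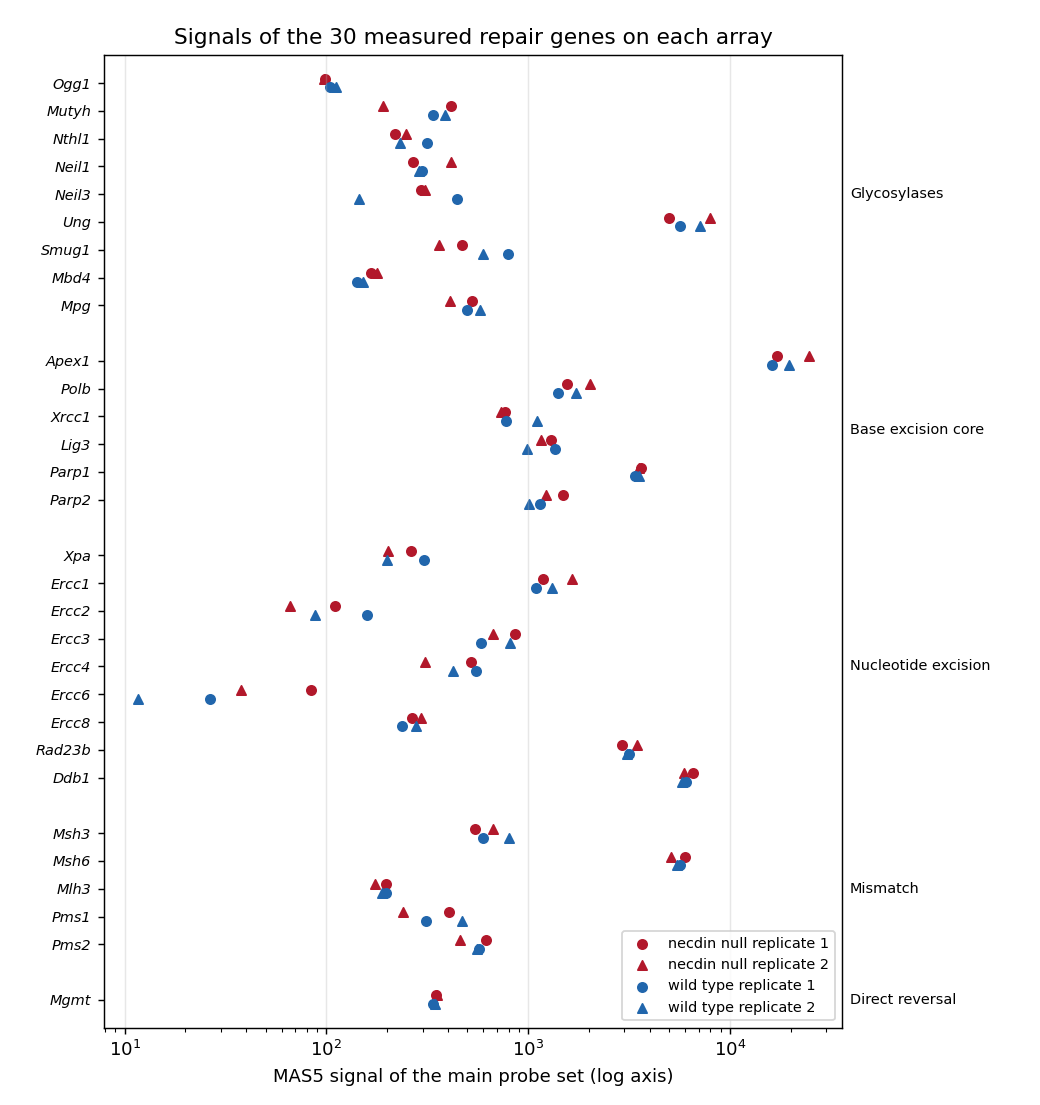
MAS5 signal of the main probe set of the 30 measured repair genes (log axis), grouped by pathway from top to bottom. Each gene has 2 necdin null arrays (red, upper row) and 2 wild type arrays (blue, lower row), with circles for replicate 1 and triangles for replicate 2; for most genes the red and blue points interleave, while Smug1 and Ercc6 show the groups apart.

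Necdin null cells were then compared with wild type cells, which asks whether loss of necdin goes with another level of these repair genes after irradiation. No repair gene passed the threshold. The limma fit over 12680 genes called 0 at an adjusted p under 0.05 (0% of all genes), and the adjusted p of all 30 repair genes was 0.999. At an unadjusted p under 0.05 there was 1 repair gene, Smug1, where 3.02% of all genes fell under that limit. The 2 arrays per group limit what can be seen: the 95% interval of a repair gene's log2 difference reached between 0.40 and 1.66 to either side of its value, with a median of 0.64, a 1.55-fold change. With 2 samples in each group, 0.333 is the smallest two-sided p that an exact permutation test allows.

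The groups did not overlap for 8 of the 30 repair genes, against 30.5% of all genes. Of these, 5 were higher on both necdin null arrays (Mbd4, Parp1, Parp2, Ercc6 and Mgmt), where the share over all genes was 12.8%. The other 3 were lower (Ogg1, Smug1 and Xrcc1), where it was 17.7%. By the sign of the log2 difference 15 had a higher and 15 a lower value in the necdin null group. Their median was 0.01, beside 45.9% higher and a median of -0.03 over all genes. This balance moved with the scaling: with median centring 11 were higher and 19 lower, and the groups were apart for 2 higher and 5 lower genes. All genes moved alike: with that scaling 35.8% of them were higher, with a median of -0.11, and the groups were apart for 30.6%. The absolute difference was under 0.5 for 28 of 30 repair genes (93.3%) and for 81.5% of all genes.

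**Figure D2:**
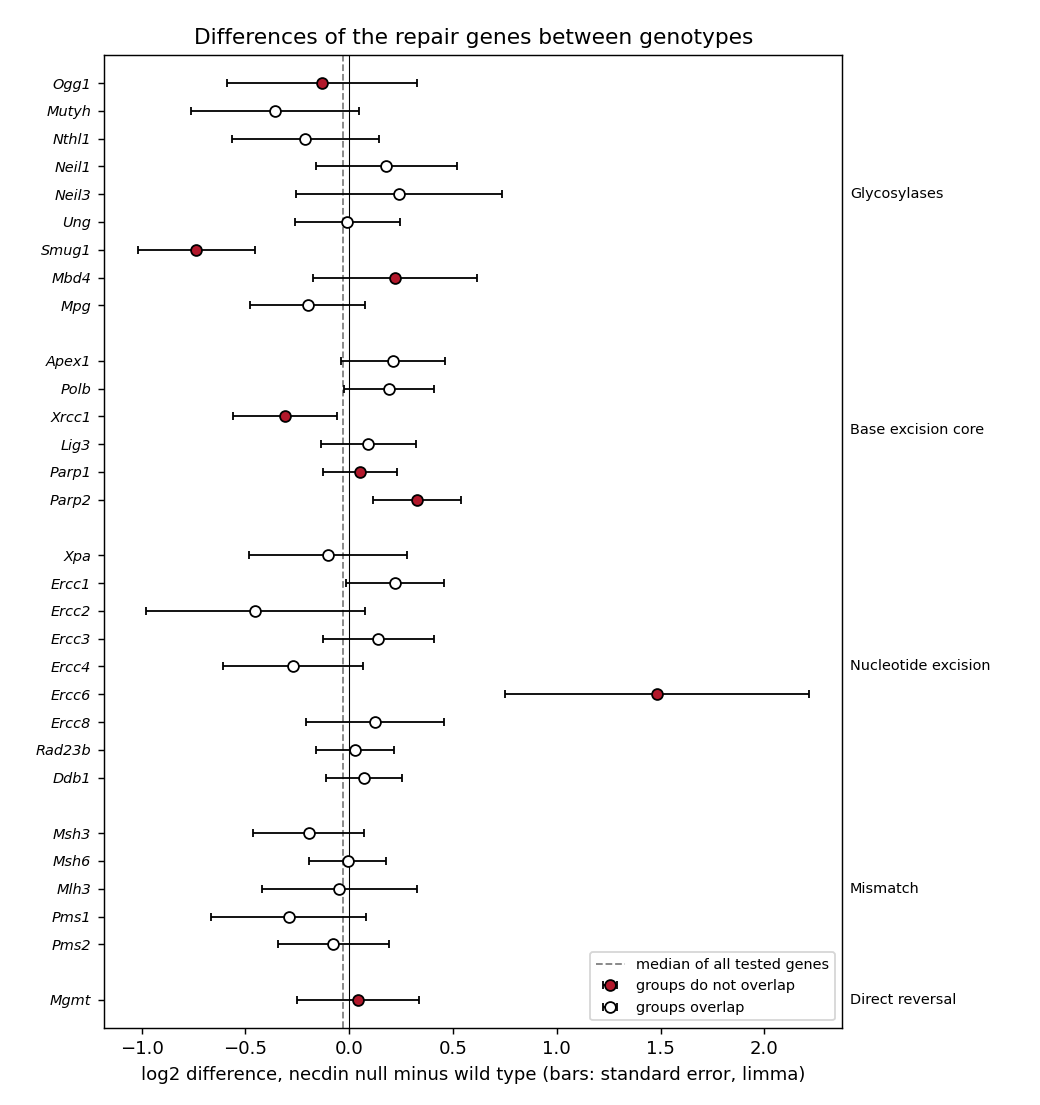
Log2 difference, necdin null minus wild type, of the 30 measured repair genes by pathway, with the standard error from limma as bars. Filled points mark the 8 genes whose groups do not overlap, the dashed line is the median of all tested genes (-0.03), and Smug1 (-0.74) and Ercc6 (1.48) lie farthest from it.

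In necdin null cells 3 glycosylases had a higher and 6 a lower value, and none passed the test. Their median log2 difference was -0.13, but -0.019 over all probe sets. It was 0.093 without probe sets whose names end in _s_at, _x_at or _a_at. That setting leaves out Mutyh and Ung and reads Ogg1 by its other probe set, whose difference is this median. Smug1, which removes uracil and some oxidised pyrimidines, had the smallest p of the repair genes. Its signals were 469 and 362 in necdin null samples against 791 and 601 in wild type samples. Both necdin null arrays thus lay below both wild type arrays, with means of 416 ± 76.1 and 696 ± 135 (SD, n = 2 each). The log2 difference was -0.74 with a standard error of 0.28 and a 95% interval of -1.38 to -0.09 (limma, unadjusted p = 0.0293, adjusted p = 0.999). Smug1 had 1 probe set, so no second probe set bears on this value. Over 16 alternative settings its difference ran between -0.93 and -0.54.

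Mutyh, which removes adenine paired with oxidised guanine, had the next smallest p of the glycosylases. It gave 414 and 190.4 in necdin null cells and 337 and 387 in wild type cells, so that the lower mean of the necdin null group rests on replicate 2 (log2 difference -0.36, standard error 0.41). Without that array the difference was 0.19. Ogg1 had 98.1 and 97.7 in necdin null samples against 104 and 111 in wild type samples, apart but by a log2 difference of only -0.13 with a standard error of 0.46. Mbd4, a glycosylase for bases mispaired with guanine at methylated CpG sites, had 166 and 178 in necdin null samples against 143 and 151 in wild type samples (0.22, standard error 0.39). A dimmer Mbd4 probe set had the opposite order, with 98.1 and 84.4 in necdin null samples against 134 and 169.8 in wild type samples, a difference of -0.71.

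The other glycosylases overlapped between the groups. Ung had 4988 and 7925 in necdin null and 5657 and 7077 in wild type cells, with replicate 2 the higher in each group and a difference of -0.01 (95% interval -0.58 to 0.56). Neil3, a glycosylase for oxidised bases of proliferating cells, had 296 and 307 in necdin null samples against 443 and 146 in wild type samples, the widest spread between replicates of all 30 genes. Its relative Neil1 had 269 and 413 in necdin null cells and 299 and 289 in wild type cells. Nthl1, for oxidised pyrimidines, and Mpg, for alkylated purines, differed by -0.21 and -0.20, each less than its standard error.

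In the core of base excision repair 5 of 6 genes had a higher and 1 a lower value in necdin null cells. The median was 0.14. None passed the test. Parp2 had 1482 and 1232 in necdin null samples against 1140.3 and 1015 in wild type samples, so both necdin null arrays lay above both wild type arrays. The means were 1357 ± 177 and 1078 ± 88.7 (SD, n = 2 each), and the log2 difference was 0.33 with a standard error of 0.21 and a 95% interval of -0.15 to 0.81 (limma, adjusted p = 0.999). Over 16 alternative settings the difference ran between 0.20 and 0.46. Parp2 had 1 probe set and groups apart, so neither leaving out an array nor changing probe sets could reverse its sign. Parp1, its relative, had 3635 and 3561 in necdin null samples against 3392 and 3548 in wild type samples. The lower necdin null value lay just above the higher wild type value, and the difference was 0.05 with the smallest standard error among the repair genes, 0.18. The next brightest Parp1 probe set had 2849 and 3170 in necdin null samples against 3115 and 3734 in wild type samples. Its difference was -0.18, while the dimmer ones had 0.11 and 0.11.

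Xrcc1 was the core gene with the lower value in necdin null cells. It had 765 and 733 there and 781 and 1105 in wild type cells, a difference of -0.31 (standard error 0.25), with wild type replicate 2 far above the other arrays. Without that array the difference was -0.06. Lig3, the ligase that Xrcc1 holds, had 1301 and 1159.8 in necdin null samples against 1352 and 982 in wild type samples, overlapping, with a difference of 0.09. Apex1 had 17139.5 and 24599 in necdin null and 16108 and 19535 in wild type cells, and Polb had 1562 and 2016 in necdin null samples against 1405 and 1717 in wild type samples. For both genes replicate 2 was higher in each group and the wild type values fell partly inside the necdin null range, with differences of 0.21 and 0.19.

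In nucleotide excision repair 6 of 9 genes had a higher and 3 a lower value in necdin null cells. The median was 0.07, and none passed the test. Without necdin null replicate 1 this median was -0.02. Ercc6 had the largest absolute difference of all 30 genes, 1.48 on the log2 scale with a standard error of 0.73 and a 95% interval of -0.18 to 3.15 (limma, unadjusted p = 0.0745, adjusted p = 0.999). The signals behind it were low: 84.0 and 37.7 in necdin null samples against 26.5 and 11.6 in wild type samples. Both wild type values lay below the signal of the filter, so the gene passed through its necdin null arrays, and its difference depends on the constant added before the logarithm. It ran between 0.99 and 2.02 over the 14 alternative settings in which the gene was tested. The gene fell below the filter when this was set at the 60th percentile. It also did so without necdin null replicate 1, the array with its highest signal, so the range holds no value for these settings.

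Ercc8 acts with Ercc6 in the repair of transcribed strands. Its main probe set had 266 and 295 in necdin null samples against 236 and 279.6 in wild type samples, overlapping (log2 difference 0.13, standard error 0.33). Its 2 other probe sets above the filter had differences of 0.51 and 0.02. The brighter of these gave 102 and 161 in necdin null samples against 87.8 and 89.9 in wild type samples, with the groups apart.

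The gene with the smallest p after Ercc6 was Ercc1, which with Ercc4 forms the nuclease that cuts on the 5′ side of a lesion. It had 1179 and 1649 in necdin null samples against 1089.7 and 1311 in wild type samples, with replicate 2 higher in each group (0.22, standard error 0.24). Ercc4 had 522 and 309 in necdin null samples against 554 and 425 in wild type samples, so both subunits of this nuclease had differences, of opposite sign (-0.27 for Ercc4), neither larger than its standard error. The TFIIH helicases Ercc2 and Ercc3 differed by -0.45 and 0.14. Xpa, which checks the damaged strand, differed by -0.10, Rad23b by 0.03 and Ddb1 by 0.07. Ddb1 had 6569.9 and 5896 in necdin null and 6085 and 5764 in wild type cells, and its 95% interval ran from -0.35 to 0.49.

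By their main probe sets, all 5 mismatch repair genes had a lower value in necdin null cells, where 45.9% of all genes had a higher one. None of the 5 passed the test, and their groups overlapped in each case. Their median log2 difference was -0.08, and without necdin null replicate 2 it was 0.08. Pms1, a MutL homologue, had 405 and 239 in necdin null and 311 and 469 in wild type cells, a difference of -0.29 (standard error 0.37). Msh3, which recognises small loops, had 545 and 670.0 in necdin null samples against 598 and 803 in wild type samples (-0.20, standard error 0.27). Msh6 had 5982 and 5111 in necdin null samples against 5660.5 and 5458 in wild type samples, with a difference of -0.01 and a 95% interval of -0.43 to 0.42. Pms2 and Mlh3, other MutL homologues, differed by -0.08 and -0.05. The other Pms2 probe sets above the filter had higher values in necdin null cells, with differences of 0.40 and 0.25, while that of Msh3 had -0.94. In 4 of these 5 genes necdin null replicate 2 was the lowest of the 4 arrays, against 31.9% of all genes.

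Mgmt transfers alkyl groups from guanine to itself. It varied least between replicates of all 30 genes, with 351 and 352 in necdin null samples against 337 and 345 in wild type samples. The groups were apart, by a log2 difference of 0.04 (standard error 0.30). This standard error, moderated by limma, also draws on the spread of genes of like signal.

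Replicates of a group differed too. The median absolute difference between the 2 necdin null arrays was 0.32 on the log2 scale over the 30 repair genes, and that between the wild type arrays was 0.27, beside 0.32 and 0.31 over all genes. The repair genes with the widest replicate spread were Neil3, Ercc6, Mutyh, Ercc2 and Pms1, with pooled replicate SDs between 0.48 and 0.79. Those with the narrowest were Mgmt, Parp1, Ogg1, Mbd4 and Ddb1, at 0.02 to 0.09. Necdin null replicate 2 was the lowest array for 11 of the 30 genes and the highest for 9, against 31.9% and 25.1% of all genes.

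The position of that array differed between bright and dim repair genes. At a mean signal of 1000, a level chosen after the values were seen, it was the highest array for 5 of 10 bright genes and the lowest for 1. Of the 20 dimmer genes it was the highest for 4 and the lowest for 10. Over all genes it was the highest for 31.5% of bright and 21.6% of dim genes, and the lowest for 27.1% and 34.5%. By genotype, 8 of the 10 bright repair genes and 7 of the 20 dimmer ones had a higher value in necdin null cells, against 51.5% and 42.9% of all genes. Several of these bright genes changed sign under other settings. Polb, Lig3, Ercc1 and Rad23b were lower when all probe sets of a gene were averaged. With median centring Parp1, Rad23b and Ddb1 were lower. The part of the signal distribution and the 3' to 5' ratio of necdin null replicate 2 in these values was not tested.

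**Figure D3:**
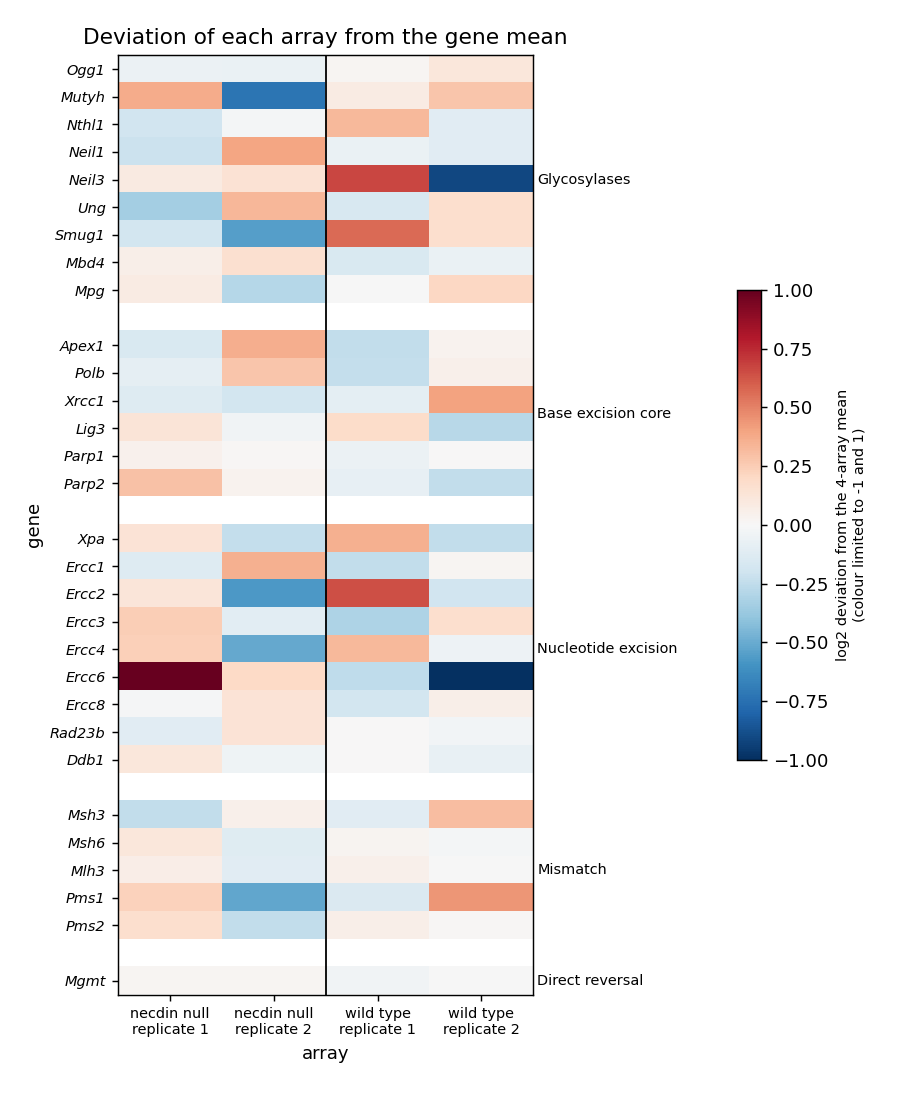
Log2 deviation of each array (columns, necdin null on the left) from the 4-array mean of each repair gene (rows, by pathway), red above and blue below, with colour limited to -1 and 1. Necdin null replicate 2 is the lowest array for 11 of the 30 genes, among them Mutyh, Ercc2, Ercc4 and Pms1, and Neil3 is lowest on wild type replicate 2.

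Different probe sets of 1 gene often disagreed. Of the 68 probe sets of the 30 genes, 57 passed the filter. Among 14 genes with at least 2 such probe sets, the sign was the same in all of them for 3 (Apex1, Ercc8 and Msh3) and mixed for 11. Of 27 probe sets other than the main one, 9 had the sign of the main one, 16 were lower and 11 higher in necdin null cells. Polb showed the widest range: its main probe set had 0.19, and the others -0.28, -0.54 and -1.02, the last with 98.2 and 98.2 in necdin null samples against 256 and 161 in wild type samples. For Rad23b the main probe set had 0.03 and the others -0.50, -0.13 and -0.29. The median difference of the base excision core was 0.14 by main probe sets and -0.14 when all probe sets of a gene were averaged, so its direction depends on that choice. That average also takes in probe sets below the filter, among them those of Lig3 with differences of -1.88 and -1.20.

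**Figure D4:**
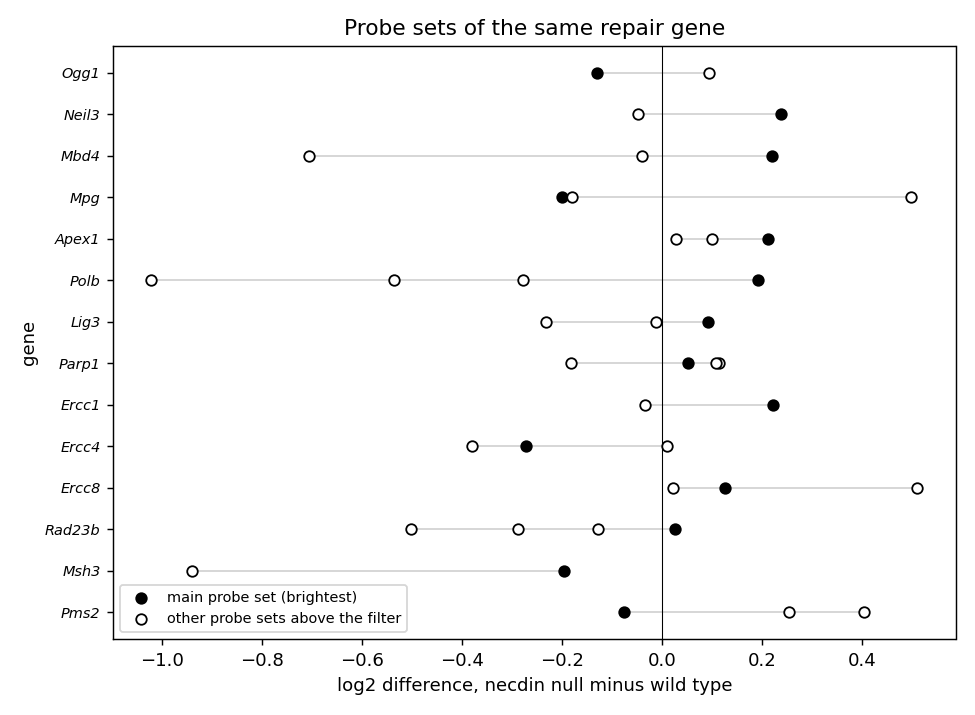
Log2 difference, necdin null minus wild type, of each probe set above the filter for the 14 repair genes with at least 2 (filled, main probe set; open, the others; grey lines span the range). Probe sets lie on both sides of 0 for 11 of the 14 genes, and the widest range is that of Polb, 0.19 to -1.02.

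The other genes of the same pathways were described through a list of 44 partners, which included the end-processing, incision, resynthesis and ligation factors. Of these 38 passed the filter, with 18 higher and 20 lower in necdin null cells, and 0 passed the test. The median log2 difference was -0.03. The groups were apart for 14 of 38 (36.8%), 6 higher and 8 lower, beside 30.5% of all genes.

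The 4 partners of smallest p were all lower in necdin null cells. Ddb2, the subunit that finds ultraviolet lesions for Ddb1 and a known p53 target, had 492 and 348 in necdin null samples against 912 and 665 in wild type samples. The log2 difference was -0.91 with a standard error of 0.29 (limma, unadjusted p = 0.0135, adjusted p = 0.999), and its second probe set was also lower. Cul4a, the scaffold of the ligase to which Ddb1 and Ddb2 belong, had 1231 and 1467 in necdin null samples against 1803 and 1873 in wild type samples (-0.45, standard error 0.20). Ddb1 itself had the small positive difference given above. Rfc1, which loads the sliding clamp, had 905 and 834 in necdin null samples against 1098 and 1424 in wild type samples (-0.52, standard error 0.23), and 2 of its 3 probe sets were lower. Without wild type replicate 2 its difference was -0.34. Apex2, a relative of Apex1, had 5.71 and 54.8 in necdin null samples against 78.3 and 109.9 in wild type samples, low signals with a difference of -2.03 and a standard error of 0.87. Necdin null replicate 1 lay below the signal of the filter, and the difference was -0.72 without that array and -3.34 without necdin null replicate 2.

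Several of these repair genes are known to be made mainly in dividing cells, so proliferation genes were read on the same arrays. Of 14 measured, 9 had a higher and 5 a lower value in necdin null cells, 0 passed the test, and the summed signal was 75493 and 86524 in necdin null and 76438 and 75593 in wild type cells. The median log2 difference was 0.05. The groups were apart for 4 higher and 3 lower genes, against 12.8% and 17.7% of all genes. Mki67, one of the lower, had 1049.6 and 1493 in necdin null samples against 2117 and 1846 in wild type samples, a difference of -0.66 with a standard error of 0.23. The part of proliferation in the values of Smug1 or Parp2 was not tested.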

How the data were processed

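RNA from 4 samples was labelled with biotin and hybridised to Affymetrix arrays. The intensity values that the authors deposited come from MAS5, per the submitters' processing notes, which name no version; detection calls were not used. They are linear, and the mean after trimming 2% of probe sets at each end is 500.004 on every array, so no further scaling was applied. Of 45101 probe sets, 34958 have 1 gene symbol in the platform annotation, 932 several and 9211 none; only the first were named. The files name no genome build, so promoter coordinates are those of RefSeq's GRCm38.p6.

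Values were analysed as log2(signal + 3.80), the constant being the 10th percentile of all signals, so log2 differences understate changes of low genes. Each gene was read by its brightest probe set (mean log2 signal), and genes from the 40th percentile of probe sets upwards (log2 value 5.09) were tested with limma 3.58.1 in R 4.3.3 (lmFit; eBayes with trend; two-sided; Benjamini-Hochberg adjustment over 12680 genes at a threshold of 0.05). The code was tested on simulated data. Replicate numbers were not used as pairs: deviations from group means correlated at 0.11 over genes, with only 2 pairs.

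The members and gene lists were chosen with earlier results of these data known. Values on every array are given for members whose groups do not overlap and for the 2 of smallest p in each pathway, for others where a sentence needs them, and the 4 partner genes of smallest p are named; Ndn, Mki67, Kit and Ly6a are checks. Other probe sets and the promoters shown were picked after values were seen. Alternatives changed the constant, filter, scaling, variance model or probe sets, blocked on the replicate number, or omitted each array in turn.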

Additional observations from a re-analysis of the deposited data

How the results depend on the processing

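No repair gene was called under any of 16 alternatives. Over all genes, 3 were called with the replicate block and 0 to 4 when 1 array was left out, against 0 otherwise. Leaving out 1 array assumes that the lone array varies like the other group; it gave 7586 to 8705 genes and 15 to 22 repair genes with groups apart, since 1 array then faces 2. Repair genes with groups apart numbered 6 to 11 under the other alternatives, against 30.4% to 31.7% of all genes. The glycosylase median was -0.21 with median centring and -0.019 as the mean over all probe sets. It was 0.093 without probe sets named _s_at, _x_at or _a_at, and so without Mutyh and Ung. The base excision core gave 0.061 with median centring, -0.14 over all probe sets and 0.038 to 0.16 with 1 array left out. Nucleotide excision gave -0.034 without probe sets named _s_at, _x_at or _a_at and -0.020 to 0.085 with 1 array left out. Mismatch repair gave -0.14 to 0.084 with 1 array left out. The partner median was -0.11 with median centring and -0.044 to 0.044 with 1 array left out.

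Of 472 values of repair genes under alternatives, 38 changed sign, in 24 genes. Smug1, Parp2, Xrcc1, Ercc2, Ercc6 and Ercc8 kept 1 sign. For Smug1, Parp2, Xrcc1 and Ercc6 this was largely fixed in advance. Each has 1 probe set and groups apart, so neither leaving out an array nor changing probe sets could reverse the sign. The mean over all probe sets took in those below the filter. Its reversed log2 differences were Ercc1 -0.17, Ercc4 0.23, Lig3 -0.65, Mbd4 -0.18, Mpg 0.039, Pms2 0.19, Polb -0.41 and Rad23b -0.22. With median centring they were Ddb1 -0.0093, Mgmt -0.038, Parp1 -0.028 and Rad23b -0.054. Without probe sets named _s_at, _x_at or _a_at they were Ercc1 -0.034, Ogg1 0.093 and Rad23b -0.50. With 1 array left out, the ranges that crossed 0 were Apex1 -0.050 to 0.47, Ddb1 -0.0065 to 0.15, Ercc1 -0.020 to 0.46, Ercc3 -0.10 to 0.38, Ercc4 -0.65 to 0.10, Lig3 -0.14 to 0.32, Mlh3 -0.14 to 0.043, Msh3 -0.41 to 0.015, Msh6 -0.12 to 0.11 and Mutyh -0.91 to 0.19. They were also Neil1 -0.13 to 0.48, Neil3 -0.55 to 1.03, Nthl1 -0.43 to 0.0096, Pms1 -0.67 to 0.084, Pms2 -0.29 to 0.13, Rad23b -0.10 to 0.15, Ung -0.34 to 0.32 and Xpa -0.40 to 0.20. The cause of these changes was not tested.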
